A study of Mus musculus with 4 samples.

Results

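The platelet-derived growth factor (PDGF) and vascular endothelial growth factor (VEGF) genes described here are 10 named genes, the ligands *Pdgfa*, *Pdgfb*, *Pdgfc* and *Pdgfd*, the receptors *Pdgfra* and *Pdgfrb*, the ligands *Vegfa*, *Vegfb* and *Vegfc*, and the angiopoietin ligand *Angpt1*. They were taken by symbol from a table of 24637 genes, and each symbol matched 1 row. Messenger RNA was sequenced from 4 libraries, 2 labelled WT (*Taf4+/+*) and 2 labelled *Taf4a*-/- (*Taf4-/-*), made from independent embryonic stem cell (ESC) lines derived from blastocysts of *Taf4a*+/- crosses in C57Bl6J mice. The null allele lacks exons 11 and 12 of *Taf4a*, which encodes a core subunit of the general transcription factor TFIID. The lines were kept on inactivated embryonic fibroblast feeders, grown for 5 days as embryoid bodies with 20% serum and then for 9 days on gelatin-coated plates to give cardiac cells, with no other agent. The labels give the time as day 9 of cardiac differentiation. All 4 libraries are whole cultures of mixed cell types at 1 time point, and each genotype is represented by 2 lines.

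PDGF ligands are dimers that bind receptor tyrosine kinases on mesenchymal cells, and the alpha receptor binds PDGF-A, PDGF-B and PDGF-C whereas the beta receptor binds mainly PDGF-B and PDGF-D. In the embryo Pdgfra marks paraxial and cardiac mesoderm, primitive endoderm and fibroblast precursors, and Pdgfrb marks pericytes and smooth muscle precursors. VEGF-A drives the growth of endothelial cells through Kdr, and its gene is a classical target of the hypoxia-inducible factors. VEGF-C acts on lymphatic endothelium through Flt4, and Angpt1 from supporting cells and myocardium activates the endothelial receptor Tek.

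The libraries held 21732746 to 27733034 reads counted on genes, and the values below are read counts divided by the size factor of the library (normalized counts). *Taf4a* itself was at 889 (replicate 1) and 678 (replicate 2) in WT, against 1722 and 1799 for the label *Taf4a*-/-, so its gene-level RNA was not lower where the label says null. Reads over the deleted exons are not listed apart from the rest of the gene, and the genotypes are those of the labels. Cardiomyocyte markers, such as the troponin gene *Tnnt2*, were detected in all libraries, with a summed level over 10 genes of 13965 and 14859 normalized counts per kb of exon in WT against 1069 and 1139.6. Between the WT libraries, a difference was seen in all 10 markers of undifferentiated cells, which were lower in replicate 2 (median log2 difference -0.85). Nothing states whether the lines were differentiated on separate days. The p-values thus rest on the spread between these libraries, in part shared across genes, and on no other experiment. In such cultures, fewer cells of a type and less RNA per cell cannot be told apart.

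Start regions were available from RefSeq (GRCm38.p6) for 7 of the 10 genes, and 4 of them are printed because they belong to 3 ligand genes that fell between the genotypes and to *Pdgfra*, which did not pass the test. No entry was matched for *Pdgfb*, *Pdgfrb* and *Angpt1*. Each stretch holds the 120 bases before the annotated start, read 5′ to 3′ on the strand of the gene, and capitals mark GGGCGG (or its reverse complement), the core of the GC box bound by Sp1 factors, on either strand. The stretches are chr5:138994945-138995064 (minus strand) for *Pdgfa*, chr3:81036296-81036415 (plus strand) for *Pdgfc*, chr17:46032378-46032497 (minus strand) for *Vegfa* and chr5:75152131-75152250 (plus strand) for *Pdgfra*. The same stretches were searched for TATAAA, the TATA box bound by TFIID, and for ACGTG, a form of the hypoxia response element core. Other forms of this core, such as GCGTG, were not searched for.
Pdgfa: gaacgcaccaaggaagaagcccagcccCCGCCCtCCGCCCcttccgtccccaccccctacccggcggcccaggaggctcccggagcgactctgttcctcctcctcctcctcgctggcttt
Pdgfc: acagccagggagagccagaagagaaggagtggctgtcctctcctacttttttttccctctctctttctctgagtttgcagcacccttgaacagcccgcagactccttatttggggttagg
Vegfa: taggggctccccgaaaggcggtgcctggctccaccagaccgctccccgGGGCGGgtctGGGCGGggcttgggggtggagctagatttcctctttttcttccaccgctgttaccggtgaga
Pdgfra: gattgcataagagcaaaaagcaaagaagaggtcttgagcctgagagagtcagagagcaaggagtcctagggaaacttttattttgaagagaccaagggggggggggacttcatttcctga

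The 4 stretches differ in base composition, with a GC content of 70.8% for *Pdgfa*, 65.8% for *Vegfa*, 51.7% for *Pdgfc* and 46.7% for *Pdgfra*. Over the full 300 bases of the RefSeq windows, GGGCGG was present in 4 of the 7 genes, against 35.9% of 27025 genes with a window. TATAAA was present in 1 of the 7, *Pdgfd*, against 14.2% of all, and ACGTG in 0 of the 7, against 19.6% of all. In the 120 bases before the start, GGGCGG was present in 3 of the 7 genes against 26.9% of all. In the same stretch TATAAA was present in 0 of the 7 against 6.76%, and ACGTG in 0 of the 7 against 9.34%. These letter matches are descriptions of the windows and show no binding. *Pdgfa* and *Vegfa* each have 2 starts in the RefSeq table, and as for every gene the outermost was searched and shown.

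All 10 genes had a log2 fold change below 0 (libraries labelled *Taf4a*-/- minus WT), against 50.8% of all genes tested, and 4 of them passed the test, *Angpt1*, *Pdgfc*, *Vegfa* and *Pdgfa*. Over all 16926 genes tested with limma on log2(normalized counts + 1), 17.3% were called lower (p-values adjusted by Benjamini-Hochberg, threshold 0.05) and 11.3% were called higher, and 0 of the 10 genes were called higher. With this scale, the change of a gene with few reads is understated. The median log2 fold change of the 10 genes was -0.54, against -0.01 for all genes tested. In 9 of the 10 genes both libraries labelled *Taf4a*-/- lay below both WT libraries, which was the case for 36.6% of all genes tested, and 0 of the 10 lay above WT in both, against 34.5% of all. At an unadjusted p-value under 0.05, 6 of the 10 genes were lower, against 23.7% of all, and 0 were higher, against 18.8%. With voom on the recovered reads, 16.3% of all genes were called lower and 10.7% higher, and among the 10 the same 4 genes were lower and 0 higher. With 2 libraries against 2, a two-sided permutation test cannot reach the threshold, and the limma values rest on the spread shared across genes.

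**Figure D1:**
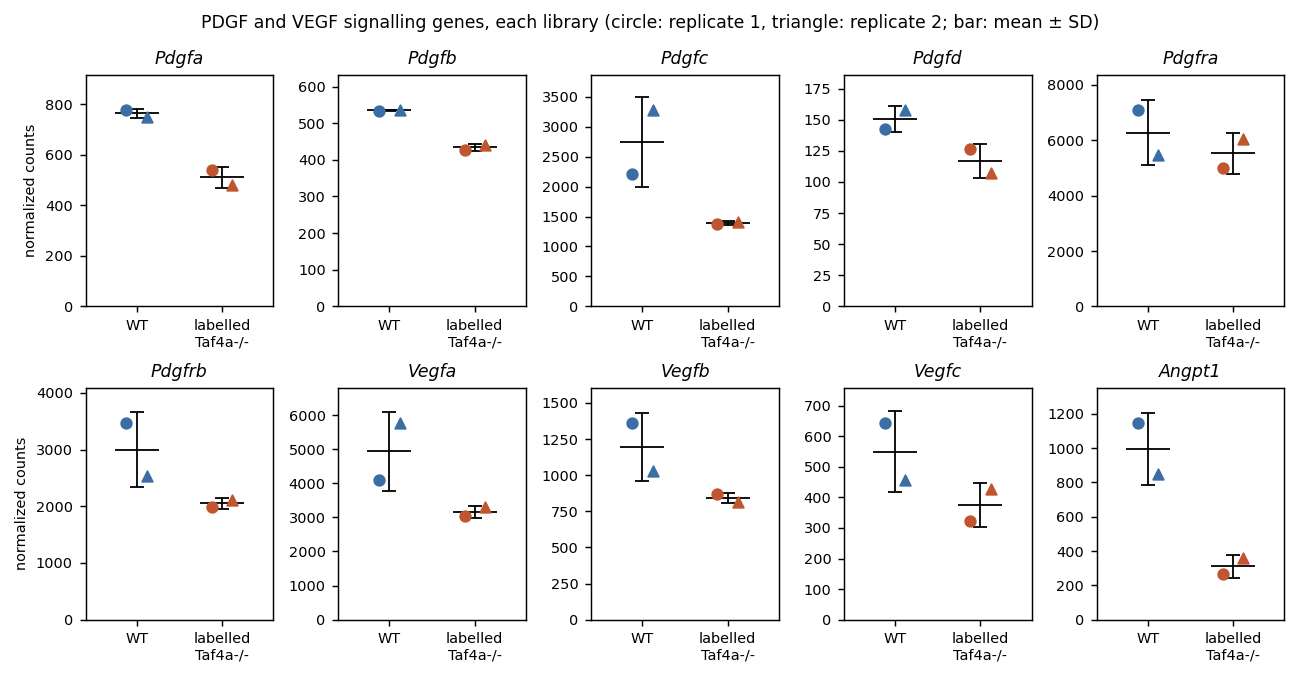
Normalized counts of the 10 genes (vertical axes, starting at 0) in the WT libraries (blue) and the libraries labelled *Taf4a*-/- (orange), with circles for replicate 1, triangles for replicate 2 and bars for mean ± SD (n = 2 each). The groups overlap for *Pdgfra* and are separate for the other 9 genes, with the widest gap for *Angpt1*.

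*Angpt1* (ENSMUSG00000022309, chromosome 15 of NCBIM37, 42256273 to 42508523, minus strand), the agonist ligand of Tek, showed the largest change of the 10. Its normalized counts were 1145 and 849 in WT (replicate 1, then 2, here and below) and 263 and 357 for the label *Taf4a*-/-. Both WT libraries were thus high and both others low, and the mean was 31.1% of that in WT. The group means were 997 ± 209 and 310.3 ± 66.4 (SD, n = 2 each). The fitted log2 fold change was -1.68 (standard error 0.22, limma adjusted p = 0.00523). It kept its call in each of the 17 alternatives tried, with log2 fold changes from -1.90 to -1.46. The looser thresholds among them could not remove the call, and changes of filter, variance trend or replicate block reuse the same estimate. Its exons overlap those of a non-coding gene on the other strand, *Gm17473*, over 283 bases, which was at most 3.92 normalized counts in any library. Of the other genes tested, those with the profile closest to *Angpt1* over the 4 libraries were *Dapl1*, *Gm14057* and *Kcnj2*, a potassium channel gene of cardiac muscle, at Euclidean distances of 0.115, 0.149 and 0.158 between centred log2 values. *Dapl1* and *Gm14057* had 49.1 normalized counts or fewer in every library, and *Kcnj2* had 414 and 346 in WT against 98.9 and 147.

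*Tek* and *Tie1*, the receptors of the angiopoietins on endothelial cells, did not pass the test, and at an unadjusted p-value under 0.05 *Tek* alone was lower. *Tek* was at 1439.6 and 696 normalized counts in WT against 282 and 628, without overlap, with a log2 fold change of -1.25 (95% interval -2.37 to -0.12, limma adjusted p = 0.0916). *Tie1* had 976 and 424 against 466 and 1150.2, so its groups overlapped. Both receptors were higher in WT replicate 1 than in replicate 2 and lower in the library labelled *Taf4a*-/- replicate 1 than in replicate 2, and *Angpt1* had the same order within each genotype. *Angpt2*, the context-dependent antagonist of Tek, had 327 and 220.3 in WT against 140.0 and 160.4, and the log2 fold change was -0.84 (standard error 0.26, limma adjusted p = 0.0563).

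Among the PDGF ligands, *Pdgfc* showed the largest change. *Pdgfc* (ENSMUSG00000028019, chromosome 3, 80840338 to 81017962, plus strand) encodes a ligand of the alpha receptor that is secreted as a latent form with a CUB domain and has to be cleaved. It had 2217 and 3279 normalized counts in WT, compared with 1368 and 1411 in the libraries labelled *Taf4a*-/-. The WT libraries were spread over a factor of 1.48, and both lay above the others, which differed by a factor of 1.03. The mean was 50.6% of that in WT, and the log2 fold change was -0.96 (standard error 0.19, limma adjusted p = 0.0179). Without a trend in the variance it did not pass (adjusted p = 0.0710).

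*Pdgfa* (ENSMUSG00000025856, chromosome 5, 139451968 to 139473324, minus strand), the ligand that signals through the alpha receptor alone, had 778 and 751 normalized counts in WT against 540.4 and 480.0. Its libraries agreed closely within each genotype and the groups were separate. Its mean was 66.7% of that in WT, and the log2 fold change was -0.58 (standard error 0.14, limma adjusted p = 0.0305), and it lost the call when any 1 of the 4 libraries was left out (adjusted p from 0.0582 to 0.214). A protein-coding gene on the other strand, *6330403L08Rik*, overlaps 813 bases of its exons, 26.1% of their merged length, and had 269 and 293 normalized counts in WT against 156 and 140.5. The library kit does not mark strand, and the part of these reads in the *Pdgfa* value was not tested.

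*Pdgfb* and *Pdgfd* did not pass the test. *Pdgfb*, the ligand of both receptors that endothelial cells and platelets release, had 533 and 536 normalized counts in WT, compared with 428 and 440.2 in the libraries labelled *Taf4a*-/-. The groups were separate and the log2 fold change was -0.30 (95% interval -0.66 to 0.055, limma adjusted p = 0.170). *Pdgfd*, whose product needs cleavage of its CUB domain, was the gene with the fewest reads, 97 to 163 per library, so that counting error alone was up to 10.2% of a value. It had 143 and 158 against 126 and 107, with a log2 fold change of -0.37 (95% interval -0.94 to 0.21, limma adjusted p = 0.285). Both intervals include 0, and with quantile normalization the log2 fold changes were -0.14 for *Pdgfb* and -0.01 for *Pdgfd*.

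By group mean, the 2 PDGF receptors had the highest counts among the PDGF genes, although *Pdgfc* was above *Pdgfrb* in WT replicate 2. *Pdgfra* (ENSMUSG00000029231, chromosome 5, 75548316 to 75594229, plus strand) had 7098 and 5451 normalized counts in WT, compared with 5012 and 6043 in the libraries labelled *Taf4a*-/-. It was the only 1 of the 10 genes whose groups overlapped, with the library labelled *Taf4a*-/- replicate 2 above WT replicate 2. Its log2 fold change was -0.18 (95% interval -0.59 to 0.24, limma adjusted p = 0.468), and it moved from -0.37 without WT replicate 2 to 0.014 without WT replicate 1. *Pdgfrb* (ENSMUSG00000024620) had 3465 and 2528 normalized counts in WT against 1981 and 2118, with separate groups and a log2 fold change of -0.53 (95% interval -0.95 to -0.12, limma adjusted p = 0.0624). It passed the threshold without WT replicate 2 (-0.76, limma adjusted p = 0.0381) and not without WT replicate 1 (-0.30, adjusted p = 0.0813) or without the labelled *Taf4a*-/- replicate 1 or 2 (adjusted p = 0.235 and 0.152).

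**Figure D2:**
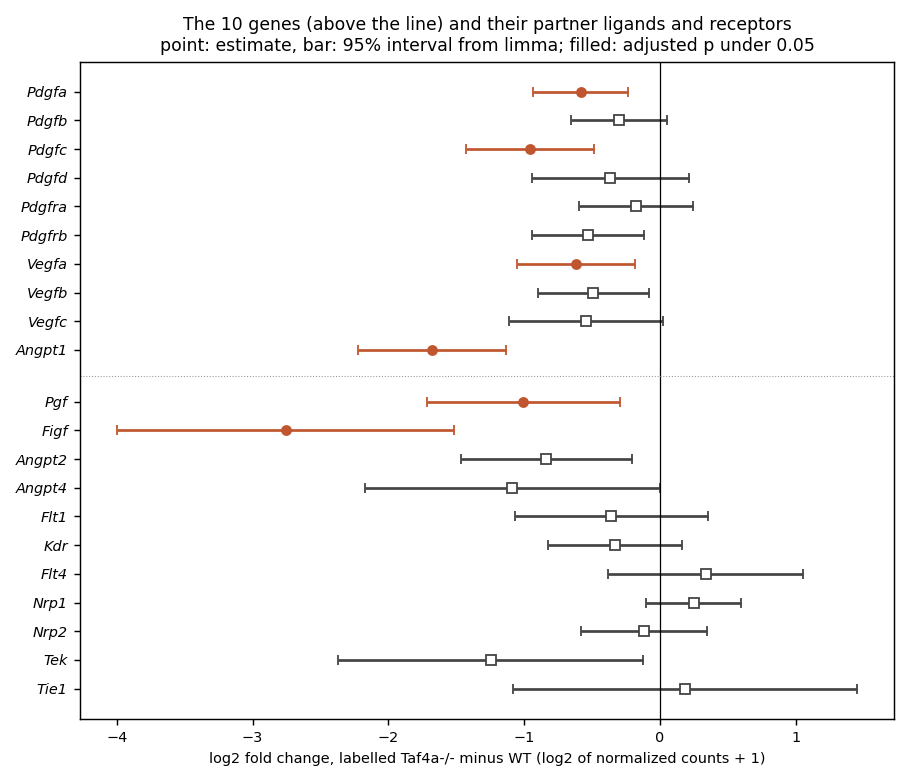
Log2 fold changes of the 10 genes and, under the dotted line, of their partner ligands and receptors (horizontal axis, libraries labelled *Taf4a*-/- minus WT, log2 of normalized counts + 1), with 95% intervals from limma and filled points for an adjusted p-value under 0.05. *Angpt1*, *Pdgfc*, *Vegfa* and *Pdgfa* are filled among the 10, and *Pgf* and *Figf* among the partners, and all 6 lie to the left of 0.

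*Vegfa* (ENSMUSG00000023951, chromosome 17, 46153942 to 46169326, minus strand) was the 1 gene of the 3 VEGF genes among the 10 that passed the test. It had 4105 and 5760.5 normalized counts in WT, compared with 3036 and 3289 in the libraries labelled *Taf4a*-/-, so that both WT libraries were above both others. The mean was 64.1% of that in WT, and the log2 fold change was -0.62 (standard error 0.18, limma adjusted p = 0.0463). This adjusted p lay close to the threshold, and the call was lost without WT replicate 2 (-0.38, adjusted p = 0.0790), without either library labelled *Taf4a*-/- (adjusted p = 0.179 and 0.107), without a variance trend and without a filter on low values. The counts add up the splice forms of *Vegfa*, of which 14 transcripts are annotated, and do not separate the soluble from the matrix-bound isoforms.

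*Vegfb*, a ligand of Flt1, had 1359.8 and 1027 normalized counts in WT, compared with 867 and 815 in the libraries labelled *Taf4a*-/-. Its groups were separate, with a log2 fold change of -0.49 (95% interval -0.90 to -0.080, limma adjusted p = 0.0752), and it passed without WT replicate 2 (-0.69, adjusted p = 0.0450). It did not pass without WT replicate 1 (-0.29, limma adjusted p = 0.124) or without the labelled *Taf4a*-/- replicate 1 or 2 (adjusted p = 0.196 and 0.279). *Vegfc*, the lymphatic growth factor, had 643 and 456 against 324 and 426, with a log2 fold change of -0.54 (95% interval -1.11 to 0.025, limma adjusted p = 0.130). The lower WT library of *Vegfc* was only slightly above the higher of the others, and its log2 fold change was -0.30 without WT replicate 1 and -0.35 without the labelled *Taf4a*-/- replicate 1.

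Per kilobase of merged exons, *Vegfa* and *Pdgfra* had the highest levels in both genotypes. In WT the mean levels were 1149 ± 273 normalized counts per kb for *Vegfa*, 931 ± 173 for *Pdgfra* and 743 ± 147 for *Vegfb* (SD, n = 2 each), and the libraries of neighbouring genes in this order overlapped. *Pdgfrb* and *Pdgfc* followed with 547 ± 121 and 540.03 ± 148, also overlapping, then *Vegfc* with 289.8 ± 69.5, *Pdgfa* with 245 ± 5.99 and *Angpt1* with 234 ± 49.2. *Pdgfb* with 183 ± 0.753 and *Pdgfd* with 48.2 ± 3.41 were lowest and did not overlap their neighbours. In the libraries labelled *Taf4a*-/- *Pdgfra* came first with 820.5 ± 108 and overlapped *Vegfa* with 737 ± 41.8, and *Angpt1* dropped below *Pdgfb*, with 72.9 ± 15.6 against 149 ± 3.00. *Pdgfd* was again the lowest, with 37.4 ± 4.31. This order depends on the length used. Per kilobase of the longest transcript, *Vegfa* came first in the libraries labelled *Taf4a*-/-, with 896 against 841 for *Pdgfra*. *Pdgfc* then lay above *Pdgfrb* by mean (781 against 553 in WT, 395 against 378 in the others). *Pdgfa* likewise lay above *Vegfc* (371 against 292 in WT, 248 against 199 in the others).

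Summed per length, the 4 PDGF ligands came to 913 and 1120 normalized counts per kb in the WT libraries and to 629 and 616 in the libraries labelled *Taf4a*-/-. The 2 receptors together had 1686 and 1271 against 1106 and 1284, and these groups overlapped. Within the ligands, *Pdgfc* made up 47.7% and 57.6% in WT, compared with 42.7% and 45.0% in the libraries labelled *Taf4a*-/-, and *Pdgfb* made up 20.0% and 16.4% against 23.3% and 24.5%. The share of *Pdgfra* in the 2 receptors was 62.5% and 63.7% in WT and 67.3% and 69.9% in the others, with no overlap. The 3 VEGF ligands summed to 2142 and 2222 per kb in WT against 1418 and 1499, and *Vegfa* made up 44.6% and 60.4% of them in WT and 49.9% and 51.1% in the others, so its share overlapped. These shares are descriptions with no test. They change with the length used, and with that of the longest transcript *Pdgfb* made up 13.4% of the ligands in WT, compared with 17.9% in the libraries labelled *Taf4a*-/-, in place of 18.2% and 23.9%.

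**Figure D3:**
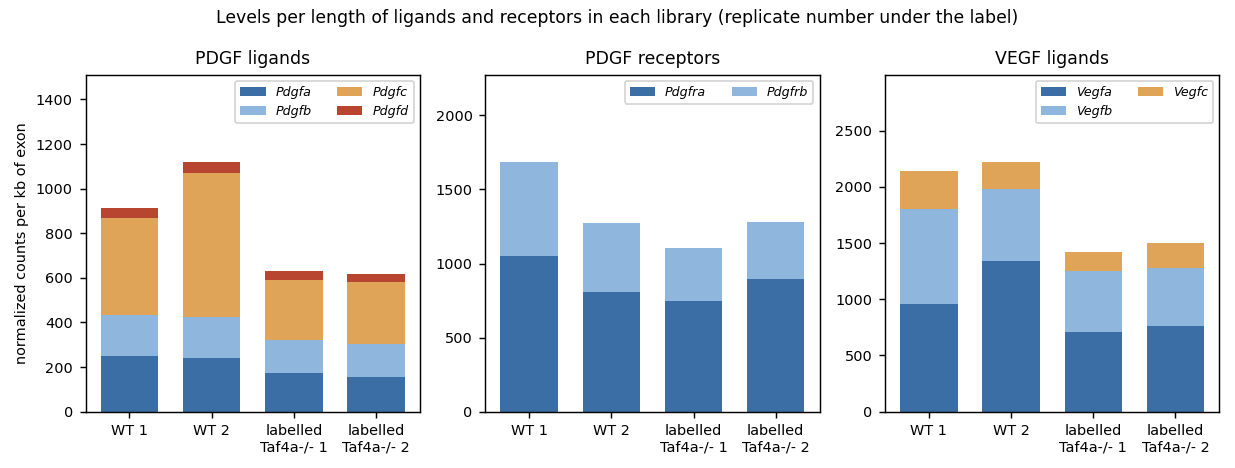
Stacked levels in normalized counts per kb of merged exons (vertical axes, starting at 0) of the PDGF ligands, PDGF receptors and VEGF ligands in each of the 4 libraries. The ligand sums are lower in both libraries labelled *Taf4a*-/- than in both WT libraries, whereas the receptor sums overlap.

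The 10 genes differed in their order within WT. *Pdgfc* and *Vegfa* were higher in WT replicate 2 than in replicate 1, by 0.56 and 0.49 on the log2 scale, whereas *Pdgfra*, *Pdgfrb*, *Vegfb*, *Vegfc* and *Angpt1* were lower there, with differences from -0.49 to -0.38. *Pdgfa*, *Pdgfb* and *Pdgfd* differed by at most 0.14 in size. Over all genes tested, the median size of this difference was 0.26 in WT and 0.16 between the libraries labelled *Taf4a*-/-. In the latter, *Angpt1* and *Vegfc* differed by 0.44 and 0.39 and *Pdgfc* and *Pdgfb* by 0.045 and 0.041, replicate 2 being the higher. For *Vegfa* the difference between genotypes was -0.62 beside 0.49 between the WT lines, and for *Vegfc* the 2 differences were -0.54 and -0.49.

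**Figure D4:**
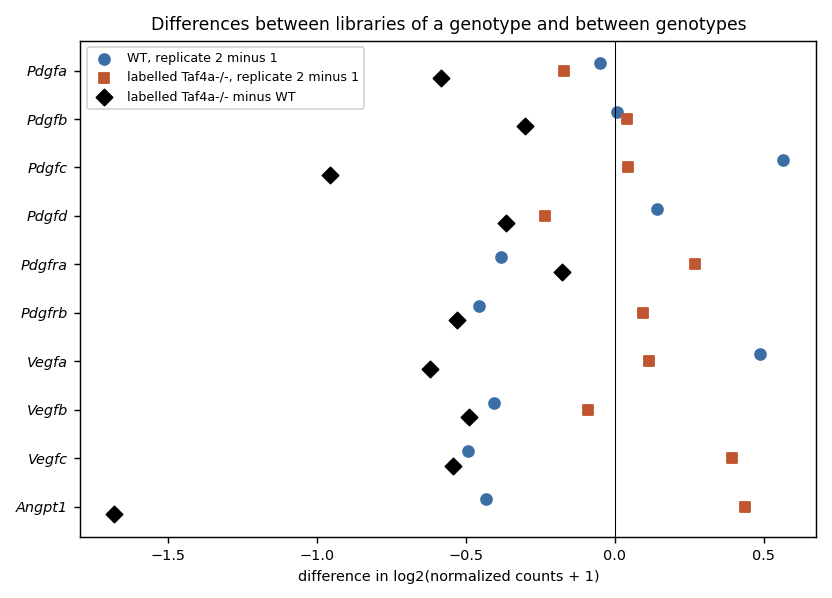
Differences in log2(normalized counts + 1) between replicate 2 and replicate 1 in WT (blue circles) and in the libraries labelled *Taf4a*-/- (orange squares), and between genotypes (black diamonds), for each of the 10 genes. *Angpt1* has its genotype difference of -1.68 far outside both differences within a genotype, and for *Pdgfra* the genotype difference of -0.18 is smaller in size than the difference of -0.38 between the WT lines.

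The other genes of the pathway, in lists of 54 distinct genes, were tested in the same fit, and 15 were called lower and 2 higher, against 17.3% and 11.3% of all genes tested. With voom these were 13 and 2, against 16.3% and 10.7%. For every list below, the shares over all genes are the same, with 23.7% and 18.8% at an unadjusted p-value below 0.05. Of 4 other ligands of these families 2 were called lower and 0 higher (median -1.05), and at an unadjusted p-value below 0.05 these were 4 and 0. With voom they were 1 and 0. *Figf*, which encodes VEGF-D, fell from 188 and 565 normalized counts in WT to 44.1 and 50.9 (log2 fold change -2.76, standard error 0.51, limma adjusted p = 0.0136). *Pgf*, which encodes placental growth factor, a ligand of Flt1, fell from 362 and 621 to 209 and 267 (log2 fold change -1.01, standard error 0.29, limma adjusted p = 0.0480). Both were higher in WT replicate 2 than in replicate 1, as were *Vegfa* and *Pdgfc*. *Angpt4* had 61.4 and 140.3 against 39.2 and 47.6 and did not pass (limma adjusted p = 0.117).

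Of the 5 VEGF receptors and co-receptors 0 were called in either direction with limma, with voom or by an unadjusted p-value below 0.05 (median -0.12). *Kdr*, the main signalling receptor of VEGF-A, had 4538 and 3775 normalized counts in WT, compared with 2726 and 3983 in the libraries labelled *Taf4a*-/-, a log2 fold change of -0.33 (95% interval -0.82 to 0.17). *Flt1*, a high-affinity receptor that can act as a decoy, had 3939.9 and 6508 against 4897 and 3179.7. *Flt4*, the receptor of VEGF-C and VEGF-D, had 555 and 351 against 449 and 692. For each of these receptors the 2 groups overlapped, while the ligand *Vegfa* was separate. The co-receptor *Nrp1* was above WT in both libraries labelled *Taf4a*-/-, with 12858 and 15478 against 11569.9 and 12216, without passing the test (0.25, limma adjusted p = 0.240), and *Nrp2* overlapped.

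Of 8 genes for proteases that process these ligands, 4 were called lower and 1 higher, and with voom 3 and 1. *Plau*, the urokinase that can cleave PDGF-D, fell from 716 and 886 normalized counts to 230.0 and 262 (log2 fold change -1.69, standard error 0.18, limma adjusted p = 0.00302). *St14*, which encodes matriptase, and *Adamts3*, a protease that matures VEGF-C, had log2 fold changes of -1.01 and -1.01 (limma adjusted p = 0.0234 and 0.0458), and *Furin*, the convertase of PDGF-A and PDGF-B precursors, had -0.56 (limma adjusted p = 0.0237). *Pcsk5*, another proprotein convertase, rose from 1130.1 and 925 to 1919 and 1792 (log2 fold change 0.86, limma adjusted p = 0.0101). *Plat*, the tissue plasminogen activator that cleaves PDGF-C, had 1972 and 2780.5 against 3078 and 3171, which did not pass (0.42, limma adjusted p = 0.128).

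Of 16 adaptors and effectors shared by these receptors, 4 were called lower and 0 higher (median 0.07), against 17.3% and 11.3% of all genes. With voom these were also 4 and 0, and by an unadjusted p-value below 0.05 they were 5 and 2, against 23.7% and 18.8% of all. The 4 were *Pik3r1*, a regulatory subunit of PI3-kinase (-0.95), the kinase *Src* (-0.62) and the adaptors *Shc1* (-0.43) and *Gab1* (-0.41), with limma adjusted p-values from 0.0118 to 0.0447. *Plcg1*, *Pik3ca*, *Grb2*, *Sos1* and *Ptpn11* had log2 fold changes between 0.04 and 0.21 and did not pass. Larger rises that did not pass either were those of *Rasa1* (0.41, limma adjusted p = 0.0515) and *Crkl* (0.37, limma adjusted p = 0.113).

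*Vegfa* was set beside the hypoxia pathway. Of 12 target genes of the hypoxia-inducible factors, 4 were called lower and 0 higher, with voom also 4 and 0, and 11 and 0 by an unadjusted p-value below 0.05. Their median was -0.93, and in 11 of the 12 both libraries labelled *Taf4a*-/- were below both WT libraries, which held for 36.6% of all genes tested. *P4ha1*, a collagen prolyl hydroxylase, fell from 8016 and 19021 normalized counts to 4436 and 3805 (log2 fold change -1.59, standard error 0.38, limma adjusted p = 0.0275), and *Bnip3*, a mitophagy receptor, from 1442 and 2569 to 711 and 649 (-1.50, standard error 0.27, limma adjusted p = 0.0122). *Egln3* and *Pgk1* had -1.14 and -0.74. The glucose transporter gene *Slc2a1* was the exception, at 0.010. In WT, 10 of the 12 targets were higher in replicate 2 than in replicate 1, with a median difference of 0.82, and *Vegfa* had the same order. Between the libraries labelled *Taf4a*-/-, 4 of the 12 were higher in replicate 2 (median difference -0.09), whereas *Vegfa* was higher there by 0.12. Whether hypoxia signalling has a part in the change of *Vegfa* was not tested. Among 8 genes for the factors and their regulators, *Egln1* and *Egln3*, oxygen-sensing hydroxylases, were called lower and *Hif1an* higher. *Hif1a* itself had a log2 fold change of -0.20 (limma adjusted p = 0.414). *Epas1*, another of the factors, had 3081 and 4726 in WT against 2627 and 1745, without overlap. It did not pass (-0.83, limma adjusted p = 0.0610).

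**Figure D5:**
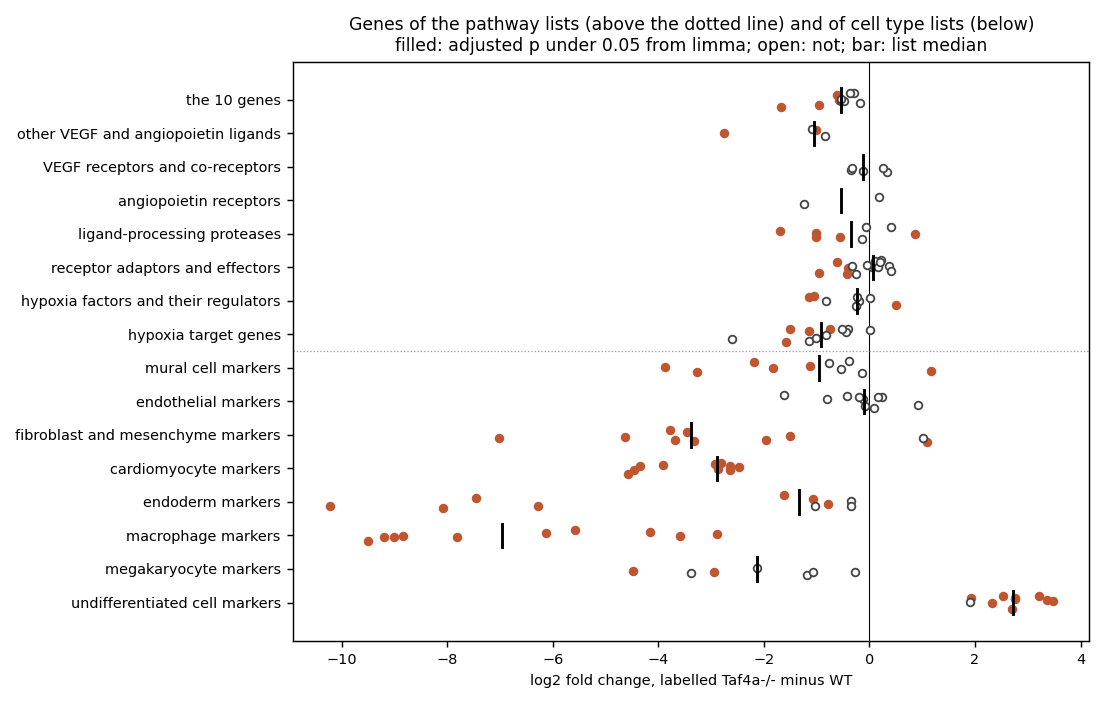
Log2 fold changes (horizontal axis, libraries labelled *Taf4a*-/- minus WT) of the 10 genes, of the pathway lists and, under the dotted line, of cell type markers, with filled points for a limma adjusted p-value under 0.05, open points for the rest and bars for medians. The median of the 10 genes, -0.54, lies closer to 0 than those of the cardiomyocyte (-2.89), fibroblast (-3.39) and macrophage (-6.97) markers. It lies further from 0 than that of the endothelial markers (-0.10).

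Markers of cell types that express these genes moved with the genotype to different extents. Of 10 fibroblast and mesenchyme markers, 8 were called lower and 1 higher, and their summed level was 62692 and 87932 normalized counts per kb in WT, compared with 8006 and 9422 in the libraries labelled *Taf4a*-/-, with none at 0. The proteoglycan genes *Lum* and *Dcn* had log2 fold changes of -7.01 and -4.63, the collagen genes *Col1a2*, *Col3a1* and *Col1a1* had -3.77, -3.68 and -3.33, and the mesenchymal transcription factor gene *Prrx1* was higher (1.09, limma adjusted p = 0.00326). *Pdgfra* had -0.18 in the same libraries. Its ratio to *Col1a1* per kb was 0.0602 and 0.0272 in WT against 0.366 and 0.355. This ratio depends on the marker chosen. *Prrx1* per kb was 88.8 and 95.6 in WT against 189 and 203. *Twist1* also lay above WT in both libraries labelled *Taf4a*-/-, without passing (1.01, limma adjusted p = 0.108). Relative to *Prrx1* or *Twist1*, *Pdgfra* was lower in both libraries labelled *Taf4a*-/- than in both WT libraries. Of 10 mural cell markers, 5 were called lower and 1 higher, and with voom 4 and 1, with a summed level of 18991 and 32948 per kb in WT and 13638 and 13610.2 in the others. The smooth muscle myosin gene *Myh11* had a log2 fold change of -3.88, the pericyte proteoglycan gene *Cspg4* -3.27 and the channel genes *Kcnj8* and *Abcc9* -2.19 and -1.83. The smooth muscle actin gene *Acta2* had -1.14 and *Rgs5* 1.17 (limma adjusted p = 0.0341), beside the -0.53 of *Pdgfrb*. The ratio of *Pdgfrb* to *Acta2* per kb was 0.0546 and 0.0234 in WT against 0.0522 and 0.0567, so these groups overlapped. This overlap depends on the marker chosen. *Rgs5* per kb was 584 and 297 in WT against 902 and 971, and *Cspg4* was 11.1 and 22.3 against 0.973 and 2.34. Relative to *Rgs5*, *Pdgfrb* was lower in both libraries labelled *Taf4a*-/- than in both WT libraries. Relative to *Cspg4* it was higher in both.

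Of 10 endothelial markers 0 were called in either direction with limma (median -0.10), whereas 1 was lower with voom and 2 by an unadjusted p-value below 0.05. Their summed level was 2351 and 1376 per kb in WT, compared with 1332 and 2423 in the libraries labelled *Taf4a*-/-, and all 10 were higher in WT replicate 1 than in replicate 2 and lower in the library labelled *Taf4a*-/- replicate 1 than in replicate 2. *Angpt1*, *Vegfc*, *Pdgfra* and *Pdgfrb* had this order too, and the other 6 genes did not. All 10 macrophage markers were called lower (5675 and 7025 per kb in WT against 153 and 238, with *C1qa* at 0 in both libraries labelled *Taf4a*-/-), as were all 10 cardiomyocyte markers and 7 of 10 endoderm markers (34287 and 31725 per kb against 2729.9 and 2487, with *Alb* at 0). Of 7 megakaryocyte markers tested, 2 were called lower and 0 higher, and the summed level of the 8 on the list was 1056 and 845 per kb against 93.5 and 165. Markers of undifferentiated cells were called higher in 9 of 10 (3006 and 1251 per kb against 10943 and 12715). The part of these cell types in the changes of the PDGF and VEGF genes was not tested.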

How the data were processed

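The authors sequenced polyA RNA (TruSeq v2, a kit that does not mark strand) and mapped the reads to mm9/NCBI37. The submitters' processing notes list CASAVA 1.8, TopHat 1.3.3, HTSeq 0.5.3p1 and DESeq. They deposited counts per Ensembl gene divided by 1 size factor per library; counting settings and annotation release are not given in the sources used here. Values were whole multiples of 1 read for 100% of genes (tolerance 0.02), which gave the recovered reads. Genes averaging 10 or more normalized counts (16926) entered a fit in limma 3.58.1 under R 4.3.3 (variance trend, 4.17 prior degrees of freedom) on log2(value + 1), with Benjamini-Hochberg adjustment over all of them. Exon lengths, coordinates and overlaps came from GENCODE vM1 (NCBIM37), where all 24637 identifiers were found. Figures used Python 3.11.15 and matplotlib 3.10.9.

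The members, lists and tests were chosen with earlier results of these data known. Named were the 10 genes, *Taf4a*, partner ligands and receptors, for each list up to 4 called genes with the largest changes, and 3 genes closest in profile to *Angpt1*. The genes *Slc2a1*, *Hif1a*, *Epas1*, *Plat*, *Furin*, *Tnnt2*, *Acta2*, *Col1a1*, *Prrx1*, *Twist1*, *Rgs5*, the adaptors that did not pass and overlapping genes were named with their values in view. Alternatives varied the pseudocount, filter, scaling, threshold, variance trend and exon length, added a replicate block or left out each library; voom and the unadjusted threshold were added after seeing the data. Other count models were not run.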

Additional observations from a re-analysis of the deposited data

How the results depend on the processing

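Over 17 alternatives for each of the 10 genes, 148 of 170 values kept their direction and side of the threshold, 15 lost the call, 6 gained it and 1 reversed, *Pdgfra* at 0.014 without WT replicate 1 (-0.37 to 0.014 over the 4 libraries left out in turn). A changed filter, variance trend, replicate block or threshold leaves the estimate as it was, so the direction could not change there. A gene without a call in the main fit counts as kept as long as it has none. *Angpt1* kept its call throughout, which the looser thresholds could not take away. The gains of *Pdgfrb* and *Vegfb* at 0.1 and without adjustment were fixed by the p-values of the main fit. So were the losses of *Pdgfa*, *Pdgfc* and *Vegfa* at 0.01. These gains and losses show nothing about the processing. Genes called lower among the 10 were 4, and 1 with no variance trend or at an adjusted p-value under 0.01; leaving out 1 library gave 2 (either one labelled *Taf4a*-/-) to 4 (WT replicate 2, with *Pdgfrb* and *Vegfb* in place of *Pdgfa* and *Vegfa*). Genes called higher among the 10 were 0 in every setting. Among the 54 pathway genes, 15 were lower and 2 higher, 2 and 1 with no variance trend, 2 and 0 at 0.01, 24 lower at 0.1, 27 and 4 where the p-value was not adjusted, and 9 (WT replicate 2) to 24 (WT replicate 1) lower and 1 (either labelled *Taf4a*-/-) to 4 (WT replicate 1) higher with 1 library left out. Over all genes 2928 were lower and 1906 higher, 1741 and 856 with no variance trend, 1119 and 331 at 0.01, 2903 higher at 0.1, 3184 higher where it was not adjusted, and 1222 (WT replicate 2) to 3038 (WT replicate 1) lower and 624 to 2476 higher with 1 library left out. A library alone in its genotype was assumed to vary like the pair in the other. The causes were not tested, apart from the thresholds and the fewer libraries.

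With quantile normalization, 52.2% of calls were higher in place of 39.4%, and the median of all genes was 0.11; the median of the 10 genes was then -0.44, and *Pdgfa* did not pass (-0.47), while *Pdgfb* and *Pdgfd* were at -0.14 and -0.01. The replicate numbers are not stated to pair the lines, and the correlation of same-numbered deviations was 0.012. With the replicate number as a block, 4 of the 10 genes were called, the same 4 as without it, and 2657 of all genes were lower and 1536 higher. A share was counted as moved where its mean shifted by at least the SD of the 2 libraries. With the length of the longest transcript, shares moved in the libraries labelled *Taf4a*-/- to 29.8% for *Pdgfa*, 47.6% for *Pdgfc*, 17.9% for *Pdgfb*, 4.61% for *Pdgfd* and 11.3% for *Vegfc*. In WT they moved to 13.4% for *Pdgfb* and 3.58% for *Pdgfd*. Other WT shares shifted within their larger SD, *Pdgfa* from 24.4% to 27.2%, *Pdgfc* from 52.6% to 55.9% and *Vegfc* from 13.3% to 11.2%. The edgeR and DESeq2 tests listed as alternatives were not run. Counting error was 1.11% to 10.2% of a value over the 10 genes, reads not being marked by molecule.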
